A study of Mus musculus with 4 samples.

Results

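Cytosolic ribosomal protein genes were taken as the protein-coding genes of the GENCODE annotation (release vM21, mm10) whose symbols name a protein of the large subunit (Rpl and the stalk genes Rplp) or of the small subunit (Rps, with Rpsa), with at most 1 letter (a, x, l or y) after the number. The rule found 80 genes among 21755 such genes on the autosomes and the X chromosome, 49 of the large and 31 of the small subunit. Their promoters were read in 4 DNase-seq libraries of natural killer (NK) cells, lymphocytes that kill infected or transformed cells. The cells were primary cells from adult female B6CASTF1/J mice, 2 months old, which carry 1 genome of C57BL/6J and 1 of CAST origin. All 4 libraries form 1 group, so no treatment, genotype or time was compared. The labels give 4 biological replicates but 1 donor identifier for all, so the spread between libraries may be partly technical, and they name neither the tissue nor the sort.

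A ribosome carries ribosomal RNA and about equal molar amounts of each ribosomal protein, so the genes for these proteins are transcribed in nearly every cell and their products are made in balance. Many of their mRNAs begin with a run of pyrimidines, the 5′ terminal oligopyrimidine (TOP) tract, through which the mTOR pathway controls their translation. DNase I cuts DNA that is not wrapped in nucleosomes, so a peak of cuts marks accessible chromatin, and a footprint is a short stretch inside a peak that is cut less because a protein may cover it.

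The promoter sequences of the 4 genes with the highest promoter signal are shown because the footprints of the libraries can be read on them. Each runs from 250 bases before to 15 bases after the annotated 5′ end of the gene, 265 bases in all, on the coding strand of the RefSeq reference genome (GRCm38.p6, the mm10 assembly, C57BL/6J). Capitals mark bases that lay in a footprint in at least 3 of 4 libraries, over at least 7 bases in a row. They are Rplp0 at chr5:115559217-115559481 (plus strand), Rpl37 at chr15:5116395-5116659 (plus), Rps12 at chr10:23787261-23787525 (minus) and Rpl27a at chr7:109518897-109519161 (plus).
Rplp0: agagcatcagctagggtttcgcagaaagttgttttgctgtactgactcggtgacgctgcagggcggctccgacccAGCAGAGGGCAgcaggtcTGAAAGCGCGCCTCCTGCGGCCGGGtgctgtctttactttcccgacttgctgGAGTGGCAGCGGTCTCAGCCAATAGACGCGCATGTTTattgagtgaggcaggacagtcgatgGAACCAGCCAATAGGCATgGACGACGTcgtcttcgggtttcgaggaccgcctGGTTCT
Rpl37: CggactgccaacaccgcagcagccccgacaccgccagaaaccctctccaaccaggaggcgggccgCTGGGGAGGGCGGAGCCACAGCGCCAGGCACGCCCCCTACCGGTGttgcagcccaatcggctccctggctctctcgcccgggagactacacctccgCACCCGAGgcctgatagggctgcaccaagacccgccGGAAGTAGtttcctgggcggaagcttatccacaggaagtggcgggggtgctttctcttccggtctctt
Rps12: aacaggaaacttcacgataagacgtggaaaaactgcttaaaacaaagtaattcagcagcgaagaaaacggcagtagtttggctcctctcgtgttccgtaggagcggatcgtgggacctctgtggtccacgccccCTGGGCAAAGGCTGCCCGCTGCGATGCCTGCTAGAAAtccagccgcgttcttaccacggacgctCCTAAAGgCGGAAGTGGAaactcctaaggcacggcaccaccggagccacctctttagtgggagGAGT
Rpl27a: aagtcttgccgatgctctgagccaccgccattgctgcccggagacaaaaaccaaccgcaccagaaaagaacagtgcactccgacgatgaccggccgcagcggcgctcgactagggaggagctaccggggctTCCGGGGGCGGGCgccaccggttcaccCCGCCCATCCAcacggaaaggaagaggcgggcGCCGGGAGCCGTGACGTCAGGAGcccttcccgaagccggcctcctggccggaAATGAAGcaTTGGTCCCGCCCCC

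Rplp0 held 6 such stretches with 105 capital bases in this window, counting a stretch cut by the window's edge, and both of its CCAAT boxes on this strand lie in capitals. The accessible region of Rplp0, merged over the libraries, was chr5:115559281-115559520, and that of Rpl37, chr15:5116341-5116620, ended before the annotated 5′ end. Those of Rps12 and Rpl27a were chr10:23787181-23787480 and chr7:109518921-109519220. Rpl37 held 4 stretches with 62 bases, Rps12 4 with 58 and Rpl27a 5 with 68. For contrast, the same windows of Rpl10l (chr12:66284387-66284651, minus) and Rpl3l (chr17:24727570-24727834, plus), 2 members without a promoter peak in any library, hold no capital.
Rpl10l: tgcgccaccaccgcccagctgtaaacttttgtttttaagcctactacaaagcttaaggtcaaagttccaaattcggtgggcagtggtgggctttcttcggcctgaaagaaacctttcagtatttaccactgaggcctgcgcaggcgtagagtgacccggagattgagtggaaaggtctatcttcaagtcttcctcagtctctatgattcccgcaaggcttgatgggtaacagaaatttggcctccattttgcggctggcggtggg
Rpl3l: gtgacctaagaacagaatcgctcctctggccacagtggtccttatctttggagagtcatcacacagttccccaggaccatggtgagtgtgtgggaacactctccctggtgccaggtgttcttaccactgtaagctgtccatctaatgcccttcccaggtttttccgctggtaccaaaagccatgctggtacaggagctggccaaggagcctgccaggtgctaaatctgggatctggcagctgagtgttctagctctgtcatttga

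The start itself is shown for the members with the longest pyrimidine runs at an annotated start. With any coding start allowed, this run was the most frequent among members of the sequence features searched. At the gene 5′ end alone 21 members had a run, fewer than the 26 with the SP1 motif described below. Each line is 30 bases of the coding strand with the run in capitals, at an annotated start of a protein-coding transcript. The lines are chr17:24720239-24720268 (plus) for Rps2, chr3:130730329-130730358 (minus) for Rpl34, chr14:24490706-24490735 (plus) for Rps24, chr9:106429526-106429555 (plus) for Rpl29, chr14:18270964-18270993 (minus) for Rpl15 and chr6:115808730-115808759 (minus) for Rpl32. Rpl3l and Rpl10l, at chr17:24727808-24727837 and chr12:66284384-66284413, have no run of 8 or more bases.
Rps2: gaTTTCCTTTTTTTCCTCTTCTTTTTgtca
Rpl34: cccgCCCCTTCCTTTTCCTCTTCCggggac
Rps24: cagtgagcggTCCTCTTTTCCTCCTCTCCa
Rpl29: gCCTTTCTCTTTCTCTTCCggtctccggcg
Rpl15: aagCCTTCTTCCTTTCCTCTggcggcagcc
Rpl32: ccgccgccgCCTCTTCCTTCTTCCTCggcg
Rpl3l: gctgagtgttctagctctgtcatttgacct
Rpl10l: ggcctccattttgcggctggcggtgggcac

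The last set shows starts that lie downstream of the annotated gene 5′ end and that carried the strongest peak of the gene. They are those of Rpl18 (chr7:45718059-45718088, plus), Rps10 (chr17:27635227-27635256, minus) and Rpl3 (chr15:80083389-80083418, minus).
Rpl18: gtctcgcaggccgCTCTTTCCCCgcccact
Rps10: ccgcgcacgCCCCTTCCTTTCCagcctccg
Rpl3: gttcgcacgctcagggggcggagccatcac

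The runs were 24 bases in Rps2, 20 in Rpl34, 19 in Rps24, 18 in Rpl29, 17 in Rpl15 and Rpl32, 13 in Rps10 and 10 in Rpl18. Rpl3 has 3 pyrimidines in a row at this start. The members' median over their longest run was 8.5 bases.

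The libraries held 36285 to 69168 peaks in the longer of the authors' 2 peak lists, with the most in replicate 3, and their read numbers are not given in the files. The signal of a peak is the authors' own value, on an unstated scale, so levels are set beside each other within a library first. Of the NK marker genes fixed for this check, 7 of 10 had a promoter peak in at least 3 libraries, led by Il2rb and Prf1. Klrb1c had one in 1 library, and Klrk1 and Tbx21 in 2 each. The same held for 5 of 8 B cell, 2 of 8 erythroid, 1 of 8 myeloid and 1 of 7 T cell markers found in the annotation. With any coding start allowed, 4 of 7 T cell markers had such a peak, with Cd3d at a mean signal of 6.95 and Cd28 at 3.68, while the counts of the other lists stayed the same. Cd3e, Cd4, Cd8a, Gata1 and Lyz2 had no peak at any coding start in any library. The B cell markers Ebf1, Cr2 and Pax5 had a promoter peak in all 4 libraries, with mean signals of 1.75, 1.44 and 0.962. With any coding start allowed, Pax5 had a mean of 3.66. The median signal of the NK markers with a peak in all libraries was 8.52 in replicate 3 and 2.91 to 3.26 in the others. In deposited units the ribosomal protein genes were also highest in replicate 3, where 68 of the 73 members with a peak in all libraries had their highest value. Other protein-coding genes had their highest median there too (6.30). Values were then divided by each library's median over all genes with a peak in every library. The members' median was then 1.51, 1.53, 1.63 and 1.68 in replicates 1 to 4, highest in replicate 4. That of the NK markers was 0.742, 0.632, 1.35 and 0.752, still highest in replicate 3. The part of cell makeup or scale in this was not tested.

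Nearly all ribosomal protein promoters were accessible. A peak within 1 kb of the gene 5′ end was found in at least 3 of 4 libraries for 74 of 80 members (92.5%), beside 50.4% of all protein-coding genes (10962 of 21755). Replicates 1, 2 and 4 had 74 such members each and replicate 3 had 75, and 73 had a peak in every library. The 6 remaining members were Rps2, Rpl17, Rps10 and the paralogs Rpl3l, Rpl10l and Rpl39l.

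The signal of accessible member promoters was above that of other accessible promoters at the median. The median promoter signal of the 73 members with a peak in all libraries was 6.12, 7.92, 10.3 and 6.51 in replicates 1 to 4 (mean 7.72 ± 1.90, SD, n = 4). Over the 10278 other genes with a peak in all libraries it was 4.03, 5.13, 6.30 and 3.85 (4.83 ± 1.13). The members' median was thus 1.60 ± 0.08 times that of the other genes, and higher in each of the 4 libraries. It stood at the 73.8th ± 1.80 percentile within a library, against 53.8 ± 1.69 for the other genes. In each library 10 to 11 members reached the highest 10% of promoter signals, and 2 to 3 fell in the lowest 25%. The members' mean signals lay between 5.84 and 9.76 from the lower to the upper quartile, beside 2.44 to 8.29 over the other genes.

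**Figure D1:**
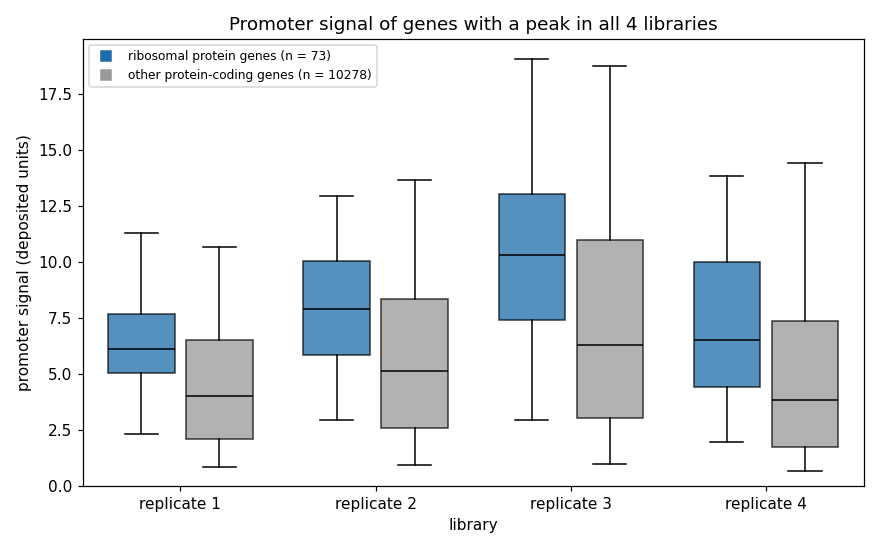
Promoter signal (deposited units, vertical axis) in each library for 73 ribosomal protein genes and 10278 other protein-coding genes with a peak in all 4 libraries; boxes show the quartiles and median, whiskers the 5th and 95th percentiles. The members' median lies above that of the other genes in every library (10.3 against 6.30 in replicate 3), while the upper whiskers of both groups are close.

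Rplp0 had the highest promoter signal of all members, 17.6, 18.2, 23.7 and 17.7 in replicates 1 to 4 (19.3 ± 2.93). It encodes the protein that anchors the stalk of the large subunit, where translation factors that use GTP bind. Its value was above that of the next gene, Rpl37, in all 4 libraries, by little in replicate 4 (17.7 against 17.4). The other stalk genes were lower, Rplp1 at 7.56, 10.1, 13.1 and 11.1 (10.5 ± 2.29) and Rplp2 at 7.40, 8.87, 10.3 and 4.60 (7.80 ± 2.44). Rplp1 and Rplp2 overlapped in range, and neither reached the lowest value of Rplp0 in any library.

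Below Rplp0 the order ran on without clear steps. Rpl37 had 12.2, 15.3, 19.1 and 17.4 (16.0 ± 2.97), and Rps12, a small subunit gene, 11.8, 13.8, 20.5 and 13.6 (14.9 ± 3.83). Rpl27a had a mean of 14.3 ± 3.69, Rps28 of 14.2 ± 3.46, Rpl7a of 13.9 ± 3.22 and Rpl13a of 13.4 ± 3.11. Rpl14, at 11.5 ± 3.34, was also among the 10 highest. Of 72 pairs of neighbours in the order of means, only 2 were separated by more than the larger SD of the pair, and Rplp0 over Rpl37 was one of these. Across the 73 members, the libraries ranked the genes alike, with Spearman's rho between 0.83 (replicates 1 and 4) and 0.96 (replicates 1 and 2), a description over genes that share libraries and peak scale.

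**Figure D2:**
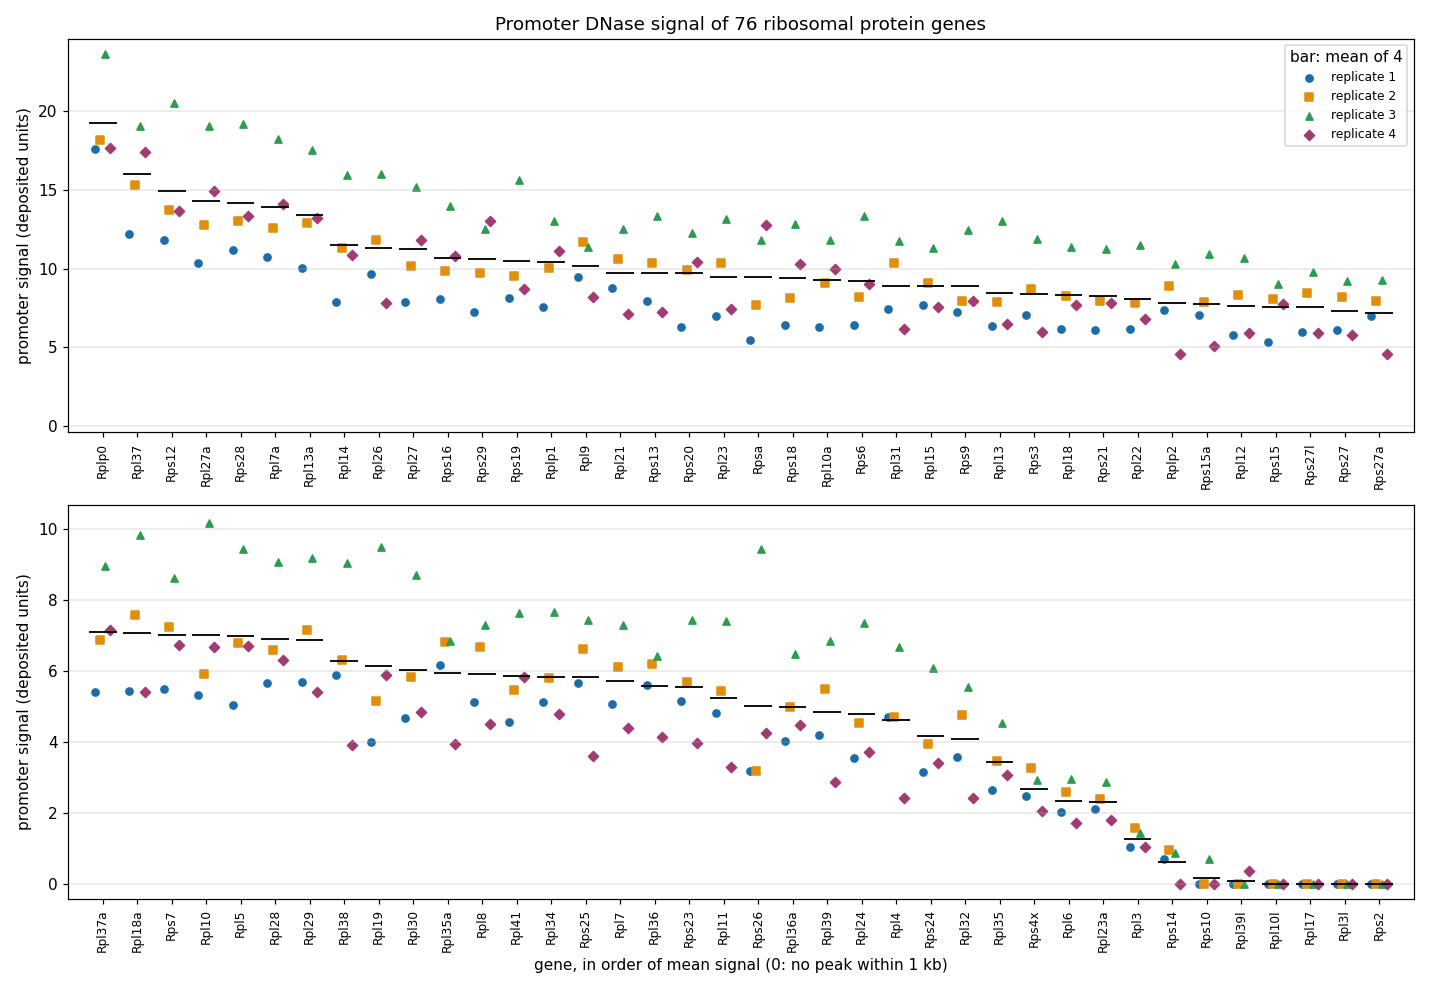
Promoter signal (deposited units, vertical axes, which differ between the panels) of 76 of the 80 members in order of their mean; coloured points are the 4 libraries and black bars their mean, with 0 for no peak within 1 kb. Rplp0 stands apart at the top with 17.6 to 23.7, replicate 3 is the highest library for most genes, and 4 members at the right end are at 0 in every library.

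At the low end among members open in all libraries stood Rpl3, Rpl23a, Rpl6, Rps4x and Rpl35. Rpl3, whose product lies near the peptidyl transferase centre, had 1.06, 1.58, 1.45 and 1.05 (1.28 ± 0.27) at its annotated 5′ end. Rpl23a had a mean of 2.30 ± 0.45 and Rpl6 of 2.33 ± 0.55. Rps4x had 2.69 ± 0.53 and Rpl35 3.43 ± 0.81. None of these 5 genes overlapped in range with Rplp0 or Rpl37, which is no separate result, since both sets were picked by their place in the order.

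Small subunit genes had a somewhat higher median than large subunit genes. Over the 28 small subunit members with a peak in all libraries the median was 6.40, 8.17, 11.9 and 7.79 (8.56 ± 2.33), and over the 45 of the large subunit 5.70, 6.88, 9.49 and 5.88 (6.99 ± 1.75). The difference, small minus large, was 0.705, 1.29, 2.38 and 1.91 (mean 1.57 ± 0.73) and had the same sign in 4 of 4 libraries. It is small beside the range within the large subunit, whose means run from 1.28 to 19.3.

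The genes of the 5S particle and the ubiquitin fusion Rps27a lay below the members' median of 7.72 in their means. Rpl5 and Rpl11 carry 5S ribosomal RNA into the large subunit and, when free, bind Mdm2 and stabilise p53. Rpl5 had 5.03, 6.79, 9.44 and 6.69 (6.99 ± 1.82) and Rpl11 had 4.82, 5.43, 7.39 and 3.31 (5.24 ± 1.69), and Rpl5 was higher in each library. Rps27a, made as a fusion with ubiquitin, had 6.98, 7.94, 9.25 and 4.55 (7.18 ± 1.99). Within a library, only Rpl11 was below the members' median every time. Rpl5 was above it in replicate 4 (6.69 against 6.51), and Rps27a in replicates 1 (6.98 against 6.12) and 2 (7.94 against 7.92).

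Rpsa, which encodes a small subunit protein also known as a laminin receptor, differed most between libraries. Its signal was 5.45, 7.71, 11.8 and 12.8 in replicates 1 to 4 (9.44 ± 3.45), so that replicate 4 was its highest library. After division by each library's median over all genes with a peak in every library, its coefficient of variation was 44.6%, the largest among members open in all libraries, ahead of Rps26 (38.6%) and Rps29 (33.1%). Rps26 had 3.17, 3.18, 9.42 and 4.26, high in replicate 3 alone. Rps29 had 7.22, 9.76, 12.6 and 13.1. At the other end Rpl29 varied by 2.02% and Rps27 by 3.66%, and the median over the 73 members was 13.9%, beside 15.8% over the other genes.

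The 4 X-linked members had lower signals than the autosomal ones. Rpl10 had 5.32, 5.92, 10.1 and 6.66 (7.01 ± 2.16), Rpl36a had a mean of 4.99 ± 1.06, Rpl39 of 4.85 ± 1.69 and Rps4x of 2.69 ± 0.53. Their median was 4.11, 5.24, 6.65 and 3.69 (4.92 ± 1.33), below the autosomal members' 6.16, 7.95, 10.9 and 6.69 (7.93 ± 2.14) in each library. Other genes showed the same order, with 2.76 ± 0.61 over 284 other X-linked and 4.92 ± 1.16 over 9994 other autosomal genes open in all libraries.

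Paralogs of ribosomal protein genes split into 1 open and 3 mostly closed promoters. Rps27l, the close copy of Rps27, had 5.98, 8.48, 9.80 and 5.88 (7.54 ± 1.93), beside 7.32 ± 1.65 for Rps27 itself. Rpl10l and Rpl39l are copies known for their expression in testis, and Rpl3l for muscle. Rpl10l and Rpl3l had no peak and no base with an FDR below 0.05 within 1 kb in any library. Rpl39l had 1 peak, in replicate 4, with a signal of 0.375, and 59 bases under that FDR with a lowest value of 0.0279.

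Processed pseudogenes, copies of mRNAs pasted back into the genome, are common for this family. Of 287 processed pseudogenes named after 55 members, 5 (1.74%) had a peak in at least 3 libraries within 1 kb of their 5′ end, beside 215 of 10142 processed pseudogenes (2.12%). The 5 were Rpl29-ps2 (mean signal 1.62), Rpl38-ps1 (1.19), Rpl34-ps1 (0.937), Rpl5-ps2 (0.861) and Rpl10-ps2 (0.452), named after their values were seen. All lay below the members' first quartile of 5.84, and Rpl29-ps2 lies near a start of another coding gene. How the authors treated reads that match a gene and its copies alike is not known from these files.

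The 4 members outside the paralogs that lacked a peak in 1 or more libraries at the annotated gene 5′ end (Rps2, Rpl17, Rps10 and Rps14), and 3 that had one in all (Rpl3, Rpl18 and Rps24), had a stronger peak at a start further downstream. The gene 5′ end is the outermost transcript end of the annotation, and for these 7 genes it lay 1425 to 27498 bp before the coding start with the strongest peak. With the start of any protein-coding transcript allowed, 77 of 80 members had a peak in at least 3 libraries, beside 53.7% of all protein-coding genes (11690). The 3 left were Rpl3l, Rpl10l and Rpl39l, so that each of the 76 members outside the paralog list was open. Members and other genes both have a median of 2 annotated coding starts.

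Rps2 had no peak at its outermost end in any library, and 6.15, 8.63, 13.2 and 10.7 (9.68 ± 3.01) at a start 1947 bp downstream (chr17:24719861-24720200). Rpl17 likewise had no peak at its outermost end, and 5.57, 8.17, 11.2 and 7.38 (8.08 ± 2.35) at a start 1919 bp downstream. Rps14 had 0.705, 0.967, 0.872 and no peak at its outermost end, and 6.83, 7.65, 10.5 and 7.14 (8.03 ± 1.68) at a start 27498 bp downstream. All 3 of these downstream values lie within the members' interquartile range of 5.84 to 9.76.

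Rpl3, the lowest member at its annotated end, had 9.60, 11.98, 15.8 and 11.4 (12.2 ± 2.59) at a start 8462 bp downstream (chr15:80083301-80083540), where it would rank among the 10 highest. Its outermost end lies within 1 kb of the start of Syngr1. Rps10 had a single peak of 0.706, in replicate 3 and centred at -843 bp from the outermost end, and 3.08, 3.39, 3.91 and 3.00 (3.35 ± 0.41) at a start 1425 bp downstream (chr17:27635141-27635440). Rpl18 went from 6.13, 8.27, 11.4 and 7.67 to 8.21, 10.7, 14.5 and 10.6 (11.0 ± 2.61), 2614 bp downstream (chr7:45717901-45718200). Rps24 shares its outermost promoter region with Polr3a, and had 5.52, 5.61, 11.3 and 7.18 (7.40 ± 2.71) at a start 3556 bp downstream (chr14:24490561-24490780), against 4.15 ± 1.33.

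**Figure D3:**
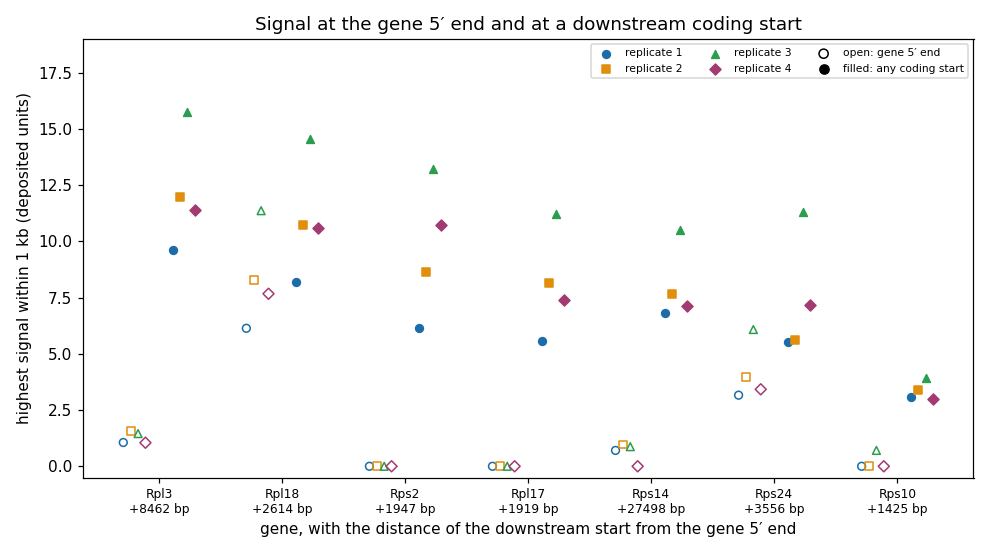
Highest peak signal within 1 kb (deposited units, vertical axis) of the annotated gene 5′ end (open symbols) and of any coding transcript start (filled symbols) for the 7 members where these differ; colours and shapes are the 4 libraries, and the label gives the distance to the downstream start. Every filled value is above the open one of the same library. This follows from taking the highest value over coding starts and from the choice of genes. The gap was largest for Rpl3 (12.2 against 1.28 on average).

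The authors' FDR values were also read at the outermost ends. Within 1 kb of the outermost end, Rps2 and Rpl17 had no base with an FDR below 0.05 in any library. Rps10 had 0, 3, 200 and 0 such bases and Rps14 had 767, 918, 544 and 0, beside 816, 813, 937 and 700 for Rplp0.

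The accessible regions mostly spanned the annotated start. The median peak width of members open in all libraries was 240 bp, the same as for the other genes. The merged region spanned the annotated gene 5′ end in 61 of 73 members (83.6%), beside 76.0% of the other genes. Coverage by peaks was highest at 26 bp before the 5′ end, where 76.0% of gene and library pairs were covered, beside 66.2% at 33 bp before it in other genes with a recurrent peak.

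In each library, the strongest promoter peak of every member that had one held at least 1 footprint. Weaker peaks in the same window were not counted here. A footprint in at least 3 libraries was thus found for 74 of 80 members, beside 48.1% of all protein-coding genes (10462). Among other genes with a peak in all libraries the share was 98.4%, and among those in the members' middle signal range (5.84 to 9.76) it was 100%. Members had 5.02 ± 0.42 footprints per peak, and those in the middle range 5.31 ± 0.49, beside 5.30 ± 0.40 for the 2486 other genes in that range. Within a library this number was higher in members in 2 libraries and lower in 2. Footprints covered 29.9%, 30.2%, 35.8% and 26.7% of the peak bases of members in the middle range in replicates 1 to 4, beside 30.8%, 33.6%, 37.7% and 29.5% in the other genes. The members' share was lower in 4 of 4 libraries, with a mean difference (members minus others) of -2.27 ± 1.10 percentage points (SD, n = 4).

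Footprints of members lay further into the transcribed side, as did their peaks. The libraries shared 307 footprint stretches of at least 7 bases (in at least 3 libraries) in 73 members, with a median length of 14 bases and a longest of 49, in Rps28. Rps19 had the most, 10, and Rpl23a had a promoter peak in every library but no shared stretch. Of the 307, 49.2% were centred before the gene 5′ end and the median centre was 3.5 bp after it, while in other genes 61.3% of 33852 stretches were centred before it, with the median 31 bp before. Among genes with a peak in all libraries, the median peak centre was 5 bp after the 5′ end in members. In other genes it was 21.5 bp before it, and the part of the peak position in the footprint shift was not tested. For Rpl15 and Rps25, named after their values were seen, the peak itself was centred 305.5 and 369 bp after the annotated end, and the part of such genes in this shift was not tested.

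**Figure D4:**
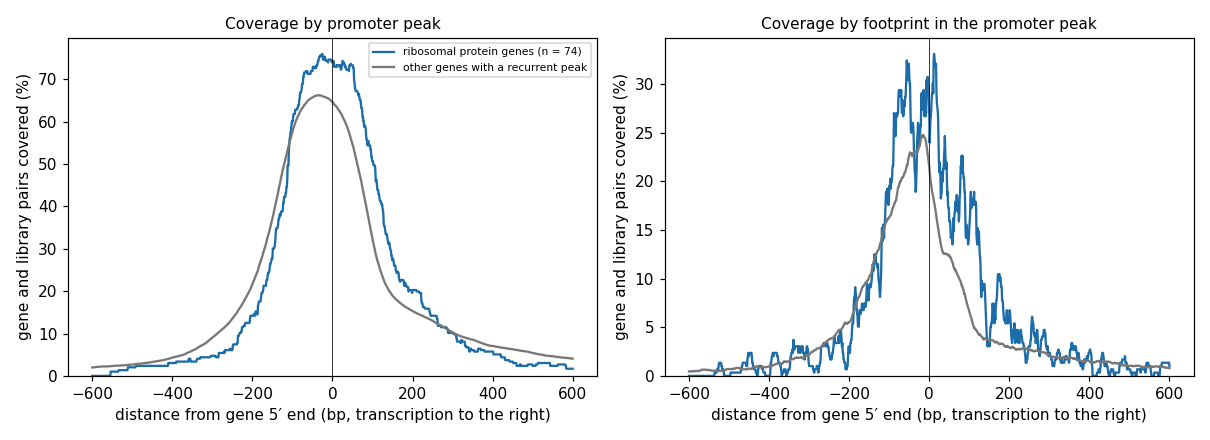
Share of gene and library pairs (%, vertical axes) whose promoter peak (left) or footprint within it (right) covers each position, by distance from the gene 5′ end (bp). Ribosomal protein genes (blue, 74 genes) peak at 76.0% against 66.2% in other genes (grey) and keep more coverage just after the start, with footprints highest 12 bp after the end (33.1%) against 17 bp before it (24.8%).

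A run of at least 8 pyrimidines (C or T) that came within 5 bases of an annotated coding start was found for 45 of 80 members, 56.3%, beside 19.2% of all protein-coding genes (4180). At the outermost gene 5′ end alone the share was 26.3% against 9.99%. Of the 73 members with a peak in all libraries, the 42 with a run had a median signal of 6.69, 8.23, 11.5 and 7.34 and the 31 without one 5.50, 6.58, 9.02 and 4.60, higher with a run in each library. The split held the same genes in each library, so this repeat does not measure the spread between genes. The run was read from the reference genome and says nothing of which start is used.

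Motifs of factors known at housekeeping promoters were searched on both strands in the 150 bases before the gene 5′ end. For ETS factors the motif was CCGGAAG, for YY1 it was AANATGGC (where N is any base), and for the SP1 family GGGCGG. For NRF1 it was GCGCATGC, for the E-box CACGTG, for the box bound by TBP (TATA) the letters TATAAA, and for NFY the letters CCAAT. A window may hold several of them. ETS was found in 15 members, 18.8%, beside 6.70% of all protein-coding genes, and YY1 in 6, 7.50%, beside 2.04%. SP1 was found in 26, 32.5%, beside 35.3%, and NFY in 17, 21.3%, beside 27.0%. NRF1 was found in 3 (3.75%, beside 2.30%), the E-box in 5 (6.25%, beside 4.76%) and TATA in 3 (3.75%, beside 7.24%).

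Since the peak of some members lies away from the gene 5′ end, the search was repeated in 200 bases at the centre of the accessible region, a choice made after the data were seen. ETS then matched 21 of the 74 members with a recurrent peak (28.4%, beside 17.4% of 10888 other genes with one), among them Rpl27a, Rpl29, Rpl15 and Rps6, the gene of the S6 kinase substrate. YY1 matched 11 (14.9%, beside 8.0%), among them Rpl10, Rpl13a, Rps28 and Rpl34. TATA matched 6 (8.11%, beside 2.42%), among them Rplp0, Rpl36a and Rpl39; in the first window, among the same genes with a recurrent peak, it was found in 4.05% of members and 2.88% of the others. These genes were named after the matches were seen. SP1 matched fewer members than other genes, 34 (45.9%, beside 60.3%), and so did NFY, 19 (25.7%, beside 32.0%). NRF1 matched 5 (6.76%, beside 5.23%) and the E-box 6 (8.11%, beside 8.29%).

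**Figure D5:**
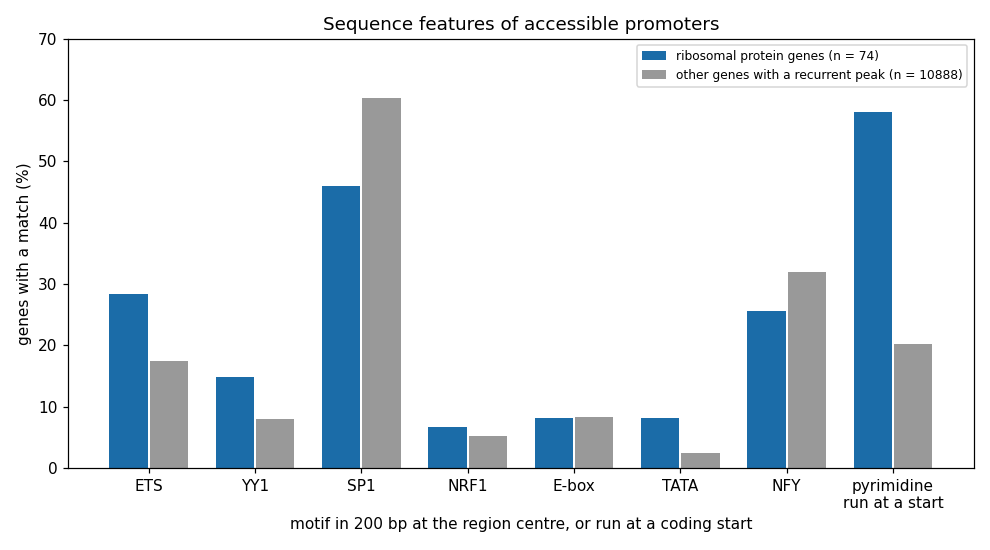
Share of genes (%, vertical axis) with each motif in 200 bases at the centre of the accessible promoter region, and with a pyrimidine run at any coding start, for 74 ribosomal protein genes and 10888 other genes with a recurrent promoter peak. ETS, YY1, TATA and the pyrimidine run (58.1% against 20.2%) are more frequent among the members, SP1 (45.9% against 60.3%) and NFY less.

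Base composition differed as well. In those 200 bases the median GC content was 60.5% in members and 65.0% in the other genes, while the ratio of observed to expected CpG was higher in members, 0.954 against 0.837. The part of base composition in the motif shares was not tested.

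Some motifs coincided with footprints more than others. In member peaks 66.3% ± 10.9 of SP1 matches lay in a footprint (at least 80% of their bases), 2.16 ± 0.33 times the share of bases in footprints, beside 2.01 ± 0.10 times in other genes. For ETS the ratio was 1.54 ± 0.20 in members and 1.55 ± 0.17 in other genes, over 29 to 32 matches per library. For NFY it was 0.58 ± 0.14 and 0.77 ± 0.03, and for YY1 1.04 ± 0.45 and 0.78 ± 0.02. NRF1 had the highest ratio, 2.84 ± 0.32, over only 6 to 8 matches, beside 3.59 ± 0.33. Of the 307 shared stretches, 75 held one of these motifs (44 SP1 and 18 ETS) within 3 bases, and 232 held none.

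Among members with a peak in all libraries, those with an ETS match before the 5′ end had a higher median signal than those without, by 0.42, 0.30, 2.53 and 2.42 in replicates 1 to 4 (14 against 59 members). With an NFY match the difference was 1.26, 0.85, 1.94 and 1.00 (16 against 57). Both kept their sign in 4 of 4 libraries. The same genes were split in each library, and the libraries ranked the members alike. A repeated sign therefore does not measure the spread between genes. With TATA (3 against 70) the median was lower in each library, with differences of -1.45, -2.09, -1.79 and -1.75, and with an E-box (4 against 69) of -0.42, -0.91, -0.75 and -1.42. For SP1 it was 1.05, 1.43, 2.14 and -0.31, so the sign was not the same in replicate 4. For YY1 (6 against 67) it was 0.0059, 0.33, -0.03 and 0.21, and for NRF1 (3 against 70) -0.72, -1.06, -1.55 and 0.73.

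Ribosomal protein genes are hosts of many small nucleolar RNAs (snoRNAs), which guide the modification of ribosomal RNA and lie in introns. An annotated snoRNA lay in the gene body of 29 of 80 members, 56 snoRNAs in all, which is 36.3% of the members, beside 1.19% of all protein-coding genes (259). Rpl4 held 5 and Rpl13a 4. The genes are short, with a median length of 3328.5 bp beside 17571 bp for the other genes.

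Regions more than 1 kb from the outermost 5′ end of any protein-coding gene, called distal here, were present at most member loci but seldom inside the genes. Regions at coding starts further downstream, such as that of Rpl3, were not removed from these counts. When each gene was extended by 25 kb at both ends, 65 of 80 members (81.3%) had at least 1 distal region found in at least 3 libraries, beside 59.2% of all protein-coding genes (12887). The median was 2 regions per member and 1 per other gene. Rpl14 and Rpl18 had 6 each, and 15 members, among them Rpl37 and Rpl27a, had none. In the gene body alone, 12 members (15%) had one, beside 28.5% of the other genes, which are longer.

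Related gene sets differed in level though nearly all were open. Genes for mitochondrial ribosomal proteins, which make up the ribosome of mitochondria, had a recurrent promoter peak in 75 of 78 cases with a median signal of 3.96, 5.36, 6.35 and 3.49 (4.79 ± 1.31), below the cytosolic members in each library. Translation factors and other genes known for TOP mRNAs were all open (16 of 16), with a median above that of the members in each library, 8.45, 10.7, 13.04 and 10.8 (10.8 ± 1.87). Tpt1 (17.5 ± 3.88), Pabpc1 (15.9 ± 5.19) and Npm1 (14.8 ± 4.55) led them. The elongation factor gene Eef1a1 had 0.891 ± 0.292 at its outermost 5′ end and 6.63 ± 1.49 at another coding start, the pattern seen in Rpl3.

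Genes of ribosome assembly were open in 26 of 26 cases, with a median of 4.55, 6.06, 8.30 and 3.83 (5.68 ± 1.98) over the 25 open in all libraries. They were led by Nop56 (15.04 ± 2.56), a core protein of snoRNA particles, Nat10 (13.8 ± 3.29), which acetylates ribosomal RNA, and Rrs1 (13.4 ± 2.64), an assembly factor. The 7 ribosomal protein genes and relatives that the naming rule misses were all open. Rps3a1 had 12.997, 15.6, 16.6 and 14.5 (14.9 ± 1.53), and Fau, which makes the S30 protein as a fusion, 12.5 ± 2.94. Rpl22l1 had 12.5 ± 3.04, Rpl36al 8.21 ± 1.51, Rpl7l1 5.74 ± 1.49 and Rack1, a signalling scaffold on the small subunit, 5.16 ± 1.84.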

How the data were processed

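DNase-seq, which reads where DNase I cuts accessible DNA, was done on 4 libraries of mouse NK cells. The authors deposited, for each library, 2 peak lists with a signal value per peak, a footprint list and the FDR of the cut rate (as p-value type values below 0.05, where the footprint lists hold 1 constant threshold). Per the file headers and readmes deposited by the authors, each file came from that library's own filtered alignments on mm10; no aligner, caller or version is named there. Signals are whole multiples of a step that differs between libraries, so replicate differences include scale, and read depth is unknown.

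A gene's promoter signal was the highest signal among peaks of the longer list that overlapped the window of 1 kb on either side of the gene 5′ end, with 0 for none. A recurrent peak was present in at least 3 of 4 libraries. Gene models came from GENCODE vM21 and sequence from RefSeq GRCm38.p6, which lacks the CAST alleles. Percentiles were taken within a library among promoters with a peak. The same peak assignment recovered 200 of 200 planted peaks on simulated data. Python 3.11.15 with numpy 2.4.6, pandas 2.3.3 and matplotlib 3.10.9 was used.

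The libraries form a single group, so values are given as mean ± SD over 4 libraries with no test and no p-value. The members, lists and rules were chosen with earlier results of these data known. Named genes were the 10 highest and 6 lowest members open in all libraries, members with a peak in fewer, the paralog, stalk, 5S and X-linked members, Rpsa, Rps27a, the ribosomal protein genes outside the naming rule and the 3 highest of the TOP and assembly lists; any other name was chosen after its values were seen. Some genes are not reported here by name, though the counts and medians include them. Alternatives changed the peak list, window, start, overlap, libraries required, peak number, summary, motif window and locus, and left out each library.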

Additional observations from a re-analysis of the deposited data

Results flagged for a closer look

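Of 49 values tested, 4 had 1 library apart from the other 3 by a gap above Dixon's 95% critical value for 4 samples. Chance flags about 1 in 20 groups of untied values. The promoter signal of Rplp0 was 23.7 in replicate 3 and 17.6 to 18.2 in the others, in deposited units. Divided by each library's median over all genes with a peak in every library, it was 4.34, 3.52, 3.74 and 4.56 in replicates 1 to 4. On that scale replicate 3 did not stand apart. In the other 3 cases the remaining libraries were tied, so that any difference, however small, passes and that chance rate does not apply. Replicate 3 had 75 members with a promoter peak and the other libraries 74 each, a difference of 1 gene. Rps10 had a promoter peak in replicate 3 alone, with a signal of 0.706, and Rpl39l in replicate 4 alone, with 0.375. Replicate 3 also had the longest peak list and the highest NK marker signal, and the part of either in these values was not tested.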

How the results depend on the processing

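The number of members with a promoter peak was 73 to 77 under every peak list, window, start, overlap and library rule tried, and 74 without any 1 library (2 of the 3 left required). The median signal was 7.72 to 8.26, and 6.85 to 8.25 without 1 library. The median percentile was 71.6 with the shorter peak list. From 250 bases before to 50 after the 5′ end, YY1 was found in 10 members, the E-box in 11 and TATA in 8. At the region centre, chosen after seeing the data, YY1 was found in 11, NRF1 in 5 and TATA in 6. Gene bodies alone gave a median of 0 distal regions. Of 46 named genes, allowing any coding start moved 5 beyond their SD (Rpl3, Rps14, Rps10, Rps2 and Rpl17), and the 500 bp window moved Rpl3, to 0.802. No paired analysis was possible because all libraries form 1 group. Depth is not given, so no floor stands behind a missing peak. With 1 donor identifier for all libraries, the SD may be partly technical.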

Other observations

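Of the 80 members, 8 had a divergent coding start within 1 kb of their 5′ end, 10% beside 6.84% of all protein-coding genes. In 7 of these the partner's promoter was the same accessible region. The strongest was that of Rps28 and Ndufa7, a subunit gene of respiratory complex I, with 11.2, 13.04, 19.2 and 13.3 in replicates 1 to 4 (14.2 ± 3.46, n = 4). Rpl7a and Med22, of the Mediator complex, followed with 10.7, 12.6, 18.3 and 14.1 (13.9 ± 3.22), and Rpl9 and Lias, the gene of lipoic acid synthetase, with 9.45, 11.7, 11.4 and 8.19 (10.2 ± 1.67). Rpl4 and Zwilch, of the mitotic checkpoint, had 4.62 ± 1.73. A peak at such a region cannot be given to either gene.

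Chromosome 7 held 14 members, 17.5% of them beside 9.30% of protein-coding genes, and chromosome 19 held none. Only 3 pairs had their 5′ ends within 100 kb of each other. Rps2 and the paralog Rpl3l lay 9.70 kb apart on chromosome 17, and Rpl41 and Rps26 77.4 kb apart on chromosome 10, with 5.87 and 5.01.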
